A study of Mus musculus with 48 samples.

Results

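The genes described here are 8 liver genes through which glucose and fructose enter metabolism and which are known to respond to dietary carbohydrate: Slc2a2, Khk, Pfkl, Pklr, Gpd1, Pgd, Taldo1 and Mlxipl. They were taken by gene symbol, and all of their 18 probe sets were kept, out of 45037 probe sets and 18193 genes on the array. Their liver RNA was compared in male C57BL/6J mice that had become obese over 10 weeks on L-P/C-HF, a diet rich in fat with little protein relative to carbohydrate, and that were kept for the study because their glucose response was the largest. Some were then moved to H-P/C-HF, equally rich in fat but with more protein and less carbohydrate, while the others stayed on the first diet. The 4 groups were H-P/C-HF 2-d (11 mice used), L-P/C-HF 2-d (12 mice), H-P/C-HF 4-wk (12 mice) and L-P/C-HF 4-wk (12 mice), with 1 array per mouse. All groups carried the same earlier L-P/C-HF feeding, and there was no lean or low-fat group. All mice had a glucose tolerance test after a fast shortly before the switch, so it lay only a few days before the death of the 2-d mice. The 4-wk mice were older and had gone through a further glucose tolerance test after an overnight fast during the study. The feeding state at death is not given in the sources used here. The array codes run with the groups (A for L-P/C-HF and B for H-P/C-HF), so an order of handling and the diet cannot be told apart, nor can the duration of feeding and the age and day of death of the mice.

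Carbohydrate reaches the hepatocyte through GLUT2, the transporter that Slc2a2 encodes. Glucose is then split in glycolysis, fructose joins the pathway after phosphorylation by ketohexokinase, and side branches lead to glycerol 3-phosphate for triglyceride and to the pentose phosphate pathway for NADPH. Many of these enzymes are transcribed more when carbohydrate is plentiful, through ChREBP (the product of Mlxipl), which binds paired E-boxes called carbohydrate response elements together with its partner MLX. H-P/C-HF exchanges carbohydrate for protein at a constant share of fat. The comparison asks how the carbohydrate-handling genes differ between obese mice on these diets. The paper reports that mice on H-P/C-HF ate fewer calories and put on less weight in the first days after the switch. Over the longer feeding they also put on less weight, while their lower intake was not statistically significant. The part of intake and weight gain in the diet differences was not tested.

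The promoter sequences next to the start sites of these genes were searched for fixed letter patterns of E-boxes. In RefSeq's windows of 250 bases before and 50 bases after each gene start (GRCm38.p6), 7 of the 8 genes had an entry, with 10 windows, and Gpd1 had none. The paired E-box (CACGNG, then 5 bases of any kind, then CNCGTG, with N for any base), searched on both strands, occurred in 15 of 32851 windows (0.0457%), and 1 of them belonged to the 8 genes. It was the window of the downstream Pklr start site of 2, which lie 481 bases apart, at chr3:89136373-89136672 on the plus strand, shown here with the paired motif in capitals.
Pklr: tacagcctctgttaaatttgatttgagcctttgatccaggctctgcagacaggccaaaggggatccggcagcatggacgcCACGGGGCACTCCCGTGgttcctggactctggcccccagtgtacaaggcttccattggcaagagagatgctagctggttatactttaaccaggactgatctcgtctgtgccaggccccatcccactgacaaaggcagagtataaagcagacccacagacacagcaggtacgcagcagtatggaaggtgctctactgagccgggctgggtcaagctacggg
The single E-box CACGTG, searched on both strands, was common, with a match in 2349 of the 32851 windows (7.15%), and among the 8 genes it stood in a window of Khk and in a window of Mlxipl. The stretches around these matches are at chr5:30921458-30921523 for Khk and at chr5:135089762-135089827 for Mlxipl, both on the plus strand, with CACGTG in capitals.
Khk: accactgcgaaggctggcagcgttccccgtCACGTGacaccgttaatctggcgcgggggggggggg
Mlxipl: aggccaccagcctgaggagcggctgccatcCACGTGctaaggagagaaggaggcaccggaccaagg
A match of letters is a description of the window and not a measured site of binding. Elements with other letters or outside these windows were not searched, so a missing match does not show that a gene has none.

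The values are log2 signals from Robust Multi-array Average (RMA), a procedure that corrects background, normalizes the arrays to each other and gives 1 value per probe set and array. Signals of different probe sets are not comparable with each other, so levels are compared only between mice within a probe set, and the probe sets of 1 gene share a target and are not replicates of it. Array B25, of the H-P/C-HF 2-d group, was left out, because the paper declared it an outlier. Lower correlations had also led the paper to name A01, A09 and A24 as potential outliers, and these were kept here. The 48 arrays had median signals of 6.73 to 6.91 and a mean correlation with the other arrays of 0.976 to 0.991. This correlation was 0.976 for B25, 0.976 for A09, 0.979 for A01 and 0.980 for A24. One gauge of RNA integrity, the excess of 3′ over 5′ signal of the array's Gapdh and beta-actin controls, differed between the durations. It averaged 0.48 ± 0.13 (SD) in H-P/C-HF 2-d, 0.48 ± 0.19 in L-P/C-HF 2-d, 0.27 ± 0.11 in H-P/C-HF 4-wk and 0.24 ± 0.07 in L-P/C-HF 4-wk, so it ran with the duration and was alike between the diets. The mean signal of 10 hepatocyte markers was 13.63, 13.57, 13.56 and 13.54 in the same order of groups. Since the liver was measured whole, fewer cells of a type and less RNA per cell cannot be told apart.

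At 2-d, the mice moved to H-P/C-HF had lower mean signals than the mice kept on L-P/C-HF in 16 of the 18 probe sets, and the genes with the smallest p-values were Gpd1, Khk and Pgd. None of them passed the test across all probe sets (limma, adjusted p under 0.05, 0 of 18 higher beside 0.00888% of all probe sets and 0 of 18 lower beside 0.00444%). At an unadjusted p under 0.05, 8 of 18 probe sets were lower, all of Gpd1, Khk and Pgd, beside 1.62% of all probe sets, and none was higher, beside 1.9%. An ordinary ANOVA, without the Global Error Assessment that the study's methods add, also called none of the 18 at an adjusted p under 0.05, here or in the later diet comparisons. At the methods' own threshold, which is set on the unadjusted p, this ANOVA took in 1 of the 18 at 2-d, Gpd1 1448249_at, and 0 of 18 at 4-wk. For the average of both times it took in 2 of 18, the same Gpd1 probe set and Khk. The share of all probe sets under this threshold is not given here, so these counts have no background beside them. The paper, whose test includes Global Error Assessment, lists Gpd1 and Gpd2 among the targets of the transcription factor FOXO1 in its 4-wk data. The 0 of 18 at 4-wk thus holds for the ordinary ANOVA only. The median difference of the 18 was −0.18 on the log2 scale, beside 0.01 over all 45037 probe sets. Slc2a2, Pfkl, Mlxipl and Taldo1 differed by 0.11 or less in size.

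Gpd1 encodes the cytosolic glycerol 3-phosphate dehydrogenase, which turns the glycolytic intermediate dihydroxyacetone phosphate into glycerol 3-phosphate, the backbone of triglyceride. Its probe set 1448249_at had a lowest, median and highest signal of 10.36, 10.57 and 10.82 in the 11 H-P/C-HF 2-d livers, against 10.71, 10.96 and 11.24 in the 12 L-P/C-HF 2-d livers. The groups barely overlapped: 10 of the 11 mice on H-P/C-HF were under the lowest on L-P/C-HF, and 11 of the 12 on L-P/C-HF were over the highest on H-P/C-HF. The difference was −0.41 ± 0.10 (SE), a ratio of 0.75, with an unadjusted p of 7.2e-05 and an adjusted p of 0.171 in limma. The adjusted p ranged between 0.0181 and 0.378 over the 11 other settings, and it was under 0.05 in 2 of them, after cyclic loess normalization (0.0323) and when only the groups compared were fitted (0.0181). The left-out array B25 had 9.95, below all other mice of both 2-d groups.

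A second Gpd1 probe set, 1416204_at, had 9.12, 9.63 and 9.94 in H-P/C-HF 2-d, against 9.21, 10.09 and 10.43 in L-P/C-HF 2-d. Its groups overlapped more, with 1 H-P/C-HF mouse below all L-P/C-HF mice and 8 L-P/C-HF mice above all H-P/C-HF mice, and the difference was −0.39 ± 0.14 (limma, unadjusted p = 0.00716, adjusted p = 1.0). The third, 1439396_x_at, differed by −0.17 ± 0.07 and the fourth, 1456732_at, by 0.11 ± 0.07. The fourth is a probe set of low signal, between 3.97 and 4.90 in all mice used, and it was the only one of Gpd1 with a higher mean in H-P/C-HF.

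Khk encodes ketohexokinase, the enzyme that commits fructose to metabolism by phosphorylating it. Its single probe set had 11.68, 12.08 and 12.27 in H-P/C-HF 2-d, against 11.76, 12.36 and 12.55 in L-P/C-HF 2-d. All 11 values on H-P/C-HF were under the L-P/C-HF median, although the ranges overlapped. The difference was −0.23 ± 0.07, a ratio of 0.853 (limma, unadjusted p = 0.00343, adjusted p = 1.0).

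Pgd encodes 6-phosphogluconate dehydrogenase, which yields NADPH in the oxidative part of the pentose phosphate pathway. Its 4 probe sets differed by −0.24, −0.32, −0.33 and −0.30, with unadjusted p-values between 0.00575 and 0.0424 in limma and adjusted p-values of 1.0. The clearest of them by p, 1423706_a_at, had 7.73, 8.06 and 8.32 in H-P/C-HF 2-d, against 7.94, 8.29 and 8.81 in L-P/C-HF 2-d. Of the 11 values on H-P/C-HF, 10 were under the L-P/C-HF median and 5 under its whole range. Taldo1, whose product transaldolase works in the non-oxidative part of the same pathway, had 10.16, 10.48 and 10.82 in H-P/C-HF 2-d, against 10.16, 10.60 and 11.07 in L-P/C-HF 2-d, and the difference of −0.09 ± 0.09 was within the spread of the mice.

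Pklr encodes the liver pyruvate kinase, which carries out the last step of glycolysis. Its probe set 1438711_at had 10.63, 11.03 and 11.38 in H-P/C-HF 2-d, against 9.58, 11.46 and 11.63 in L-P/C-HF 2-d. All 11 values on H-P/C-HF were under the L-P/C-HF median, yet the lowest of all came from A09 on L-P/C-HF. The difference was −0.20 ± 0.14 (limma, unadjusted p = 0.175), and the other Pklr probe sets differed by −0.23 ± 0.16 and −0.12 ± 0.16. Pfkl, the liver subunit of phosphofructokinase, which sets the pace of glycolysis, differed by −0.05, −0.07 and −0.01 in its 3 probe sets.

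Slc2a2 was the one gene whose mean was higher in H-P/C-HF 2-d. It had 12.16, 12.45 and 12.75 in H-P/C-HF 2-d, against 11.25, 12.59 and 12.76 in L-P/C-HF 2-d, with a difference of 0.05 ± 0.10 and a 95% interval of −0.15 to 0.24. The direction of the medians was the opposite of that of the means, and the lowest L-P/C-HF mouse, at 11.25, was again A09. Mlxipl, the gene of ChREBP itself, had 11.14, 11.52 and 11.81 in H-P/C-HF 2-d, against 11.18, 11.57 and 12.16 in L-P/C-HF 2-d, and the difference was −0.11 ± 0.09 with an interval of −0.28 to 0.07.

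**Figure D1:**
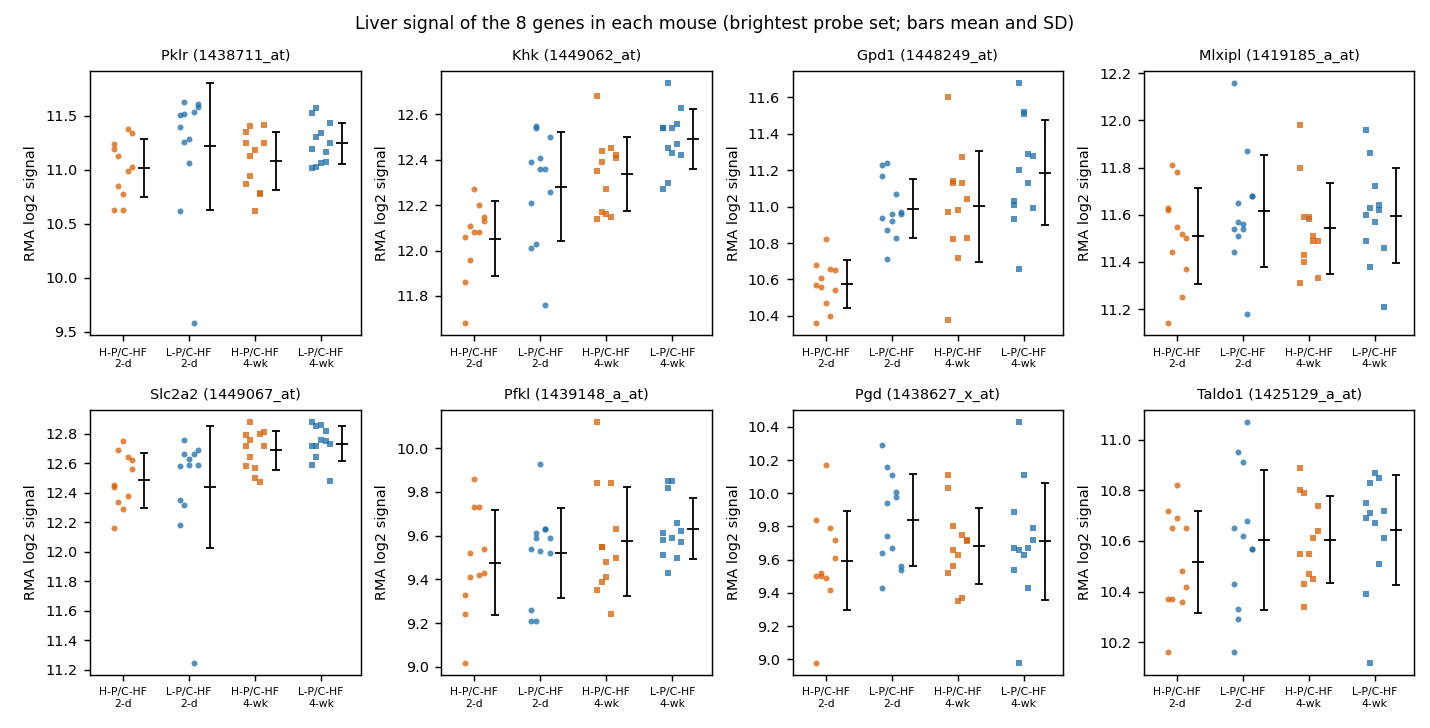
RMA log2 signal (vertical axes, 1 scale per gene) of the brightest probe set of each of the 8 genes in each of the 47 mice, by group (horizontal axes); points are mice and bars the mean with SD. The Gpd1 points of H-P/C-HF 2-d lie between 10.36 and 10.82, almost all under those of L-P/C-HF 2-d (10.71 to 11.24), and 1 L-P/C-HF 2-d mouse stands far below its group in Pklr (9.58) and Slc2a2 (11.25).

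At 4-wk, 17 of the 18 probe sets had lower means on H-P/C-HF, but the differences were small, with a median of −0.09 beside −0.01 over all probe sets. None of the 18 passed the adjusted test in limma, and neither did any other probe set on the array (0% in both directions). At an unadjusted p under 0.05, 2 of 18 were lower, beside 1.8% of all probe sets, and none was higher, beside 0.957%. They were the Khk probe set and 1416204_at of Gpd1. Khk had 12.14, 12.37 and 12.68 in H-P/C-HF 4-wk, against 12.27, 12.51 and 12.74 in L-P/C-HF 4-wk, a difference of −0.16 ± 0.07 (limma, unadjusted p = 0.0384, adjusted p = 0.999). Of the 12 values on H-P/C-HF, 11 were under the L-P/C-HF median.

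Gpd1 1416204_at had 9.67, 10.45 and 11.01 in H-P/C-HF 4-wk, against 9.94, 10.67 and 11.22 in L-P/C-HF 4-wk, a difference of −0.28 ± 0.14 (limma, unadjusted p = 0.0393, adjusted p = 0.999). Gpd1 1448249_at had 10.38, 11.01 and 11.60 in H-P/C-HF 4-wk, against 10.66, 11.17 and 11.68 in L-P/C-HF 4-wk, and the ranges, which had hardly met at 2-d, overlapped almost wholly. Its difference was −0.18 ± 0.09 with a 95% interval of −0.37 to 0.003. The 4 Pgd probe sets differed by −0.03 to −0.12 at 4-wk, the 3 of Pklr by −0.14 to −0.16, the 3 of Pfkl by −0.05 to −0.13, and Mlxipl, Slc2a2 and Taldo1 by −0.05, −0.05 and −0.04. In the same comparison all 14 Kupffer cell and macrophage markers had lower means in H-P/C-HF, with a median of −0.33. None passed the adjusted test, and 7 were lower at an unadjusted p under 0.05 in limma, beside 2.16% of all genes. At 2-d, 13 of the 14 had lower means, with a median of −0.12 and 0 lower at an unadjusted p under 0.05, beside 1.62% of all genes. The part of these markers in the diet differences at 2-d and 4-wk was not tested.

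**Figure D2:**
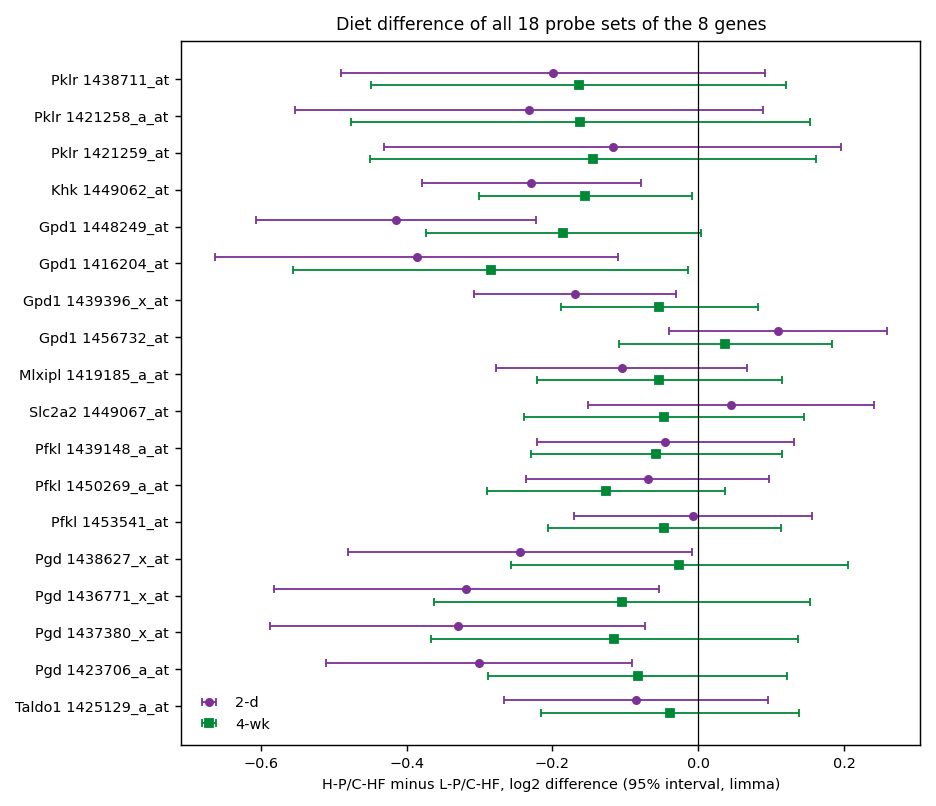
Diet difference, H-P/C-HF less L-P/C-HF (horizontal axis, log2), with its 95% interval in limma for each of the 18 probe sets (rows), at 2-d (circles, upper mark of a row) and 4-wk (squares). Most marks lie left of 0, the 2-d mark of Gpd1 1448249_at farthest, at −0.41, and that of Khk at −0.23.

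Whether the diet difference itself changed with the duration was tested as an interaction, and 0 of the 18 probe sets and none of all probe sets passed in either direction (0% of all probe sets, limma, adjusted p under 0.05). At an unadjusted p under 0.05 it was again 0 of 18, beside 0.522% of all probe sets higher and 1.11% lower. The difference at 4-wk was smaller in size than at 2-d by 0.23 ± 0.13 for Gpd1 1448249_at and by 0.21 to 0.22 for the Pgd probe sets, and none of these passed. Averaged over both durations, the diet difference of Gpd1 1448249_at was −0.30 ± 0.07 (limma, adjusted p = 0.0664) and that of Khk −0.19 ± 0.05 (adjusted p = 0.309), and 0 of 18 probe sets passed, beside 0.0289% of all probe sets higher and 0.0222% lower. Without adjustment, 7 of 18 were lower at p under 0.05 (Khk, Gpd1 and Pgd), beside 2.57% of all probe sets, and none was higher, beside 1.99%. The adjusted p of this average ranged between 0.00191 and 0.162 for Gpd1 over 10 other settings, under 0.05 in 5 of them, and between 0.00391 and 0.423 for Khk, under 0.05 in 3. Leaving out 1 mouse, either A24 of L-P/C-HF 4-wk or B47 of H-P/C-HF 4-wk, also brought Gpd1 under the threshold (adjusted p = 0.0178 and 0.0122).

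More of the probe sets were called for the duration of feeding than for the diet. In H-P/C-HF, 6 of the 18 probe sets were called higher at 4-wk than at 2-d (limma, adjusted p under 0.05, beside 4.71% of all probe sets) and none lower (beside 1.98%). They belonged to Pklr, Khk, Gpd1 and Pgd. In L-P/C-HF, 4 of 18 were called higher (beside 5.39% of all probe sets) and none lower (beside 1.49%), of Pklr, Gpd1 and Slc2a2. At an unadjusted p under 0.05, 8 of 18 were higher in H-P/C-HF, beside 10% of all probe sets, and 7 of 18 in L-P/C-HF, beside 10.7%, and none was lower in either, beside 8.5% and 6.59%. As given above, the difference between the diets in these changes was tested by the interaction and was called for none, so a call in one diet alone does not set the diets apart.

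Gpd1 rose with the duration in both of its brighter probe sets in H-P/C-HF, by 0.43 ± 0.10 in 1448249_at (limma, adjusted p = 0.00252) and by 0.75 ± 0.14 in 1416204_at (adjusted p = 0.000217). In 1448249_at, 9 of the 12 H-P/C-HF 4-wk mice lay above all 11 H-P/C-HF 2-d mice. In L-P/C-HF the second rose by 0.65 ± 0.14 (adjusted p = 0.000928), while 1448249_at differed by 0.20 ± 0.09 (adjusted p = 0.257). The dimmer probe sets 1439396_x_at (0.06 in H-P/C-HF and −0.05 in L-P/C-HF) and 1456732_at (−0.08 and −0.01) were not called. The probe sets of this gene thus differed in size, and in sign among those not called, in the same mice.

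The Pklr probe sets also differed in size. Probe sets 1421258_a_at and 1421259_at rose by 0.56 ± 0.16 and 0.59 ± 0.16 in H-P/C-HF (limma, adjusted p = 0.0205 and 0.0108) and by 0.49 ± 0.16 and 0.62 ± 0.15 in L-P/C-HF (adjusted p = 0.044 and 0.00578), whereas 1438711_at differed by 0.07 ± 0.14 in H-P/C-HF and by 0.03 ± 0.14 in L-P/C-HF. Within groups the first pair followed each other closely over the mice (r = 0.97), and each followed 1438711_at less closely (r = 0.78 and 0.76). Khk rose by 0.28 ± 0.07 in H-P/C-HF (adjusted p = 0.011), where all 12 mice at 4-wk lay above the 2-d median, and differed by 0.21 ± 0.07 in L-P/C-HF (adjusted p = 0.073).

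Pgd rose by 0.39 ± 0.10 in H-P/C-HF in 1423706_a_at (limma, adjusted p = 0.0112), while its other probe sets differed by 0.09 to 0.17. Slc2a2 rose by 0.30 ± 0.10 in L-P/C-HF (adjusted p = 0.0486) and differed by 0.20 ± 0.10 in H-P/C-HF (adjusted p = 0.249). The Slc2a2 call stood close to the threshold: it was kept in 16 of the 47 fits that left out 1 mouse, and without A09 the difference was 0.19. The L-P/C-HF call of Pklr 1421258_a_at was kept in 35 of the 47, and it was lost without A01, A02, A03, A06, A09, A17, A19, A20, A21, A22, A23 or A24 (0.37 without A09), and its H-P/C-HF call in 46, lost without B28. The calls of Gpd1, Khk, Pgd and Pklr 1421259_at were kept in all 47. Mlxipl, Taldo1 and the Pfkl probe sets were called in neither diet, and Pfkl 1450269_a_at, at 0.25 ± 0.08 in L-P/C-HF, came closest (adjusted p = 0.0526).

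The duration differences moved with the RNA quality measure. With the 3′ minus 5′ signal as a covariate in limma, the calls among the 18 probe sets fell to 1 in H-P/C-HF (beside 1.38% of all probe sets in either direction) and to 0 in L-P/C-HF (beside 1.03%). The call that stayed was Gpd1 1448249_at in H-P/C-HF, at 0.42 (adjusted p = 0.0319). The differences of Gpd1 1416204_at became 0.40 in H-P/C-HF and 0.24 in L-P/C-HF, and those of Pklr 1421259_at became 0.28 and 0.26. Within groups, the signal of a mouse went with its 3′ minus 5′ measure at r = −0.64 for Gpd1 1416204_at and −0.50 for Pklr 1421259_at over 47 mice, but at r = −0.0036 for Gpd1 1448249_at and 0.08 for Pklr 1438711_at. At 2-d the diet differences of Gpd1 1448249_at and Khk were −0.41 and −0.23 with the covariate too. At 4-wk some were smaller with it, at −0.23 against −0.28 without it for Gpd1 1416204_at, −0.10 against −0.14 for Pklr 1421259_at, −0.12 against −0.16 for Pklr 1421258_a_at and −0.03 against −0.06 for Pfkl 1439148_a_at.

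Markers of other liver cells also ran with the duration. Of 14 Kupffer cell and macrophage markers, all had higher means at 4-wk, with 10 called in H-P/C-HF (median 0.84) and 13 in L-P/C-HF (median 1.02). Their mean signal lay between 8.35 and 9.79 in H-P/C-HF 4-wk against 8.26 and 9.03 in H-P/C-HF 2-d, and between 8.97 and 10.35 in L-P/C-HF 4-wk against 8.21 and 9.35 in L-P/C-HF 2-d. All 9 sinusoidal endothelial markers were higher, with 9 called in H-P/C-HF and 8 in L-P/C-HF, and of 9 stellate cell markers 4 and 5 were called higher. Their part in the duration differences of the carbohydrate genes was not tested.

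**Figure D3:**
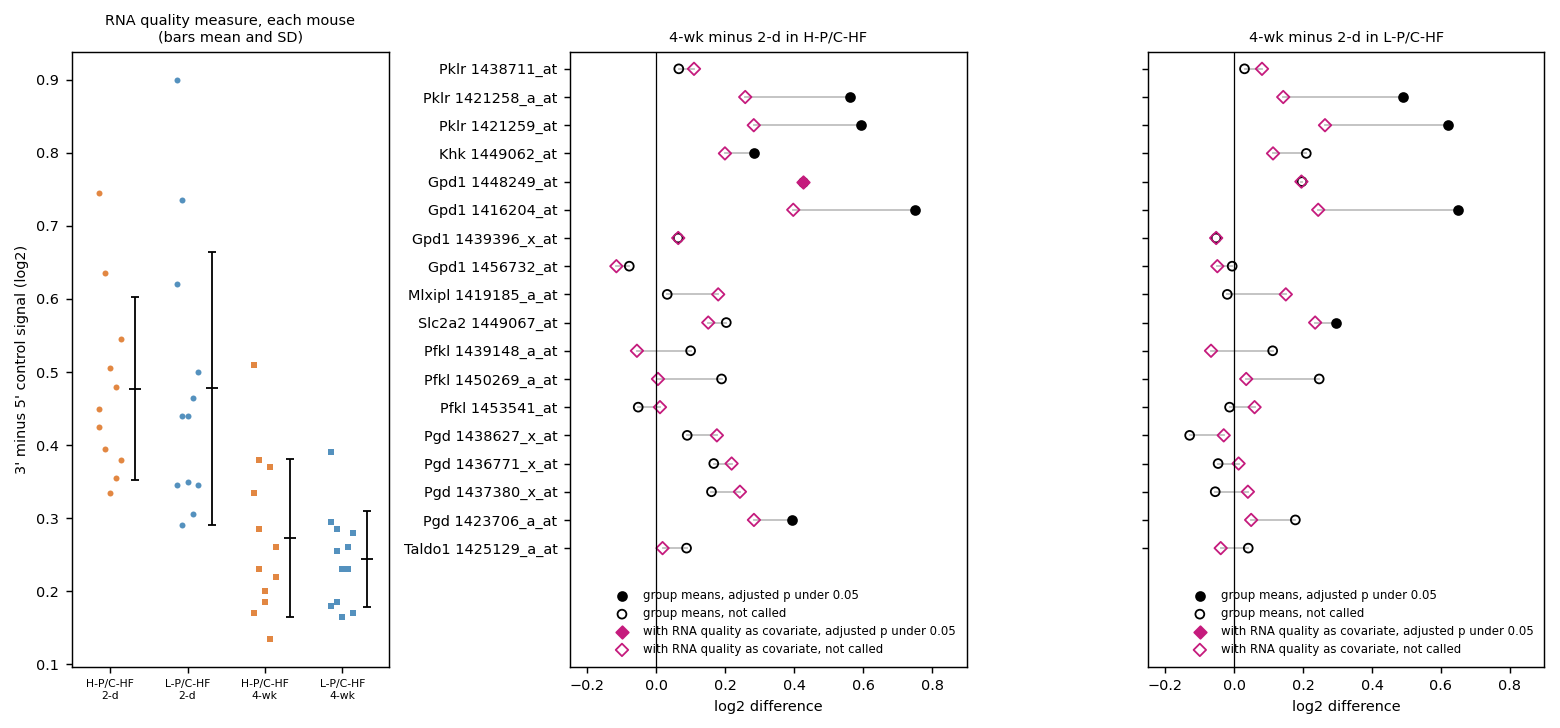
Left, the 3′ minus 5′ control signal (log2) of each mouse by group, with mean and SD. Middle and right, the 4-wk minus 2-d difference (log2) of the 18 probe sets in H-P/C-HF and in L-P/C-HF, from group means (black circles) and with the 3′ minus 5′ signal as covariate (diamonds), filled where the adjusted p in limma is under 0.05. The filled circles of Gpd1 1416204_at (0.75 and 0.65) and of 2 Pklr probe sets move towards 0 with the covariate, and Gpd1 1448249_at in H-P/C-HF stays at 0.42.

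Across the 4 groups, the mean of Gpd1 1448249_at was highest in L-P/C-HF 4-wk (11.19 ± 0.29), followed by H-P/C-HF 4-wk (11.001 ± 0.30), L-P/C-HF 2-d (10.99 ± 0.16) and H-P/C-HF 2-d (10.57 ± 0.13). Only the last step, of 0.41, exceeded the larger SD of the neighbours. Khk had the order L-P/C-HF 4-wk (12.49 ± 0.13), H-P/C-HF 4-wk (12.34 ± 0.16), L-P/C-HF 2-d (12.28 ± 0.24) and H-P/C-HF 2-d (12.05 ± 0.17), and no step exceeded the SD. Slc2a2 was at 12.73 ± 0.12 in L-P/C-HF 4-wk and 12.69 ± 0.13 in H-P/C-HF 4-wk, which did not differ beyond their spread, and at 12.48 ± 0.18 in H-P/C-HF 2-d and 12.44 ± 0.41 in L-P/C-HF 2-d. The step of 0.20 between H-P/C-HF 4-wk and H-P/C-HF 2-d exceeded their SDs. For Mlxipl and Taldo1 and the brightest probe sets of Pklr, Pfkl and Pgd, no neighbours in the order differed by more than their SD.

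The 8 genes also varied together from mouse to mouse. After the group means were removed, 27 of the 28 pairs of genes, each by its brightest probe set, correlated positively over the 47 mice, with a median Pearson r of 0.38. By a two-sided permutation test of mice within groups, adjusted over the 28 pairs, 15 pairs passed by Pearson's r and 13 by Spearman's rho, 12 of them by both. Genes share an array, so array quality enters both members of a pair. Slc2a2, the transporter, went with Khk (r = 0.80, rho = 0.79, permutation p = 1e-05 each, the smallest the permutations can give) in every group, with r between 0.66 and 0.88. Without the 2 mice farthest from the median of Khk, r was 0.76.

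Slc2a2 and Pklr had r = 0.80 and rho = 0.61 (permutation p = 2e-05 and 0.00013, adjusted p = 9.3e-05 and 0.000728), but r was 0.55 without A06 and A09 and −0.02 within L-P/C-HF 4-wk, against 0.94 within L-P/C-HF 2-d, the group of A09. Pgd and Taldo1, enzymes of the pentose phosphate pathway, had r = 0.74 and rho = 0.73, with 0.63 to 0.83 in the 4 groups and 0.70 without A19 and A24. Pfkl and Taldo1 had r = 0.65 and rho = 0.65, with 0.64 to 0.77 in the 4 groups. Slc2a2 and Pfkl passed by rho (0.52, permutation test, adjusted p = 0.00199) but not by r (0.30, adjusted p = 0.0765). By r they passed with B25 included (adjusted p = 0.0322) and with A01, A09 and A24 left out (0.000591). They also passed by r with median centring (0.0474) and with RNA quality regressed out (0.0465). Gpd1 went most closely with Pgd (r = 0.57, rho = 0.42), from 0.22 in L-P/C-HF 2-d to 0.93 in H-P/C-HF 2-d. Mlxipl passed with Gpd1 and Pgd by Pearson's r (0.38 each) but with no gene by Spearman's rho. Both were lost with A01, A09 and A24 left out (r = 0.30 and 0.33, permutation test, adjusted p = 0.0871 and 0.0588), where Mlxipl passed with Pfkl instead (r = 0.39, adjusted p = 0.0221). With RNA quality regressed out, an alternative chosen after seeing the data, Mlxipl and Pfkl had r = 0.57 and rho = 0.52 (permutation test, adjusted p = 0.000342 and 0.00147). In that setting Mlxipl also passed by Pearson's r with Gpd1 (0.43), Khk (0.39), Slc2a2 (0.35), Pgd (0.33) and Taldo1 (0.33), but not with Pklr. By rho it passed with Pfkl alone. With median centring Mlxipl passed with Gpd1 by rho as well (0.36, permutation test, adjusted p = 0.0326). Pklr with Mlxipl had r = 0.26 (permutation p = 0.126), and r was −0.0014 without A06 and A09.

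**Figure D4:**
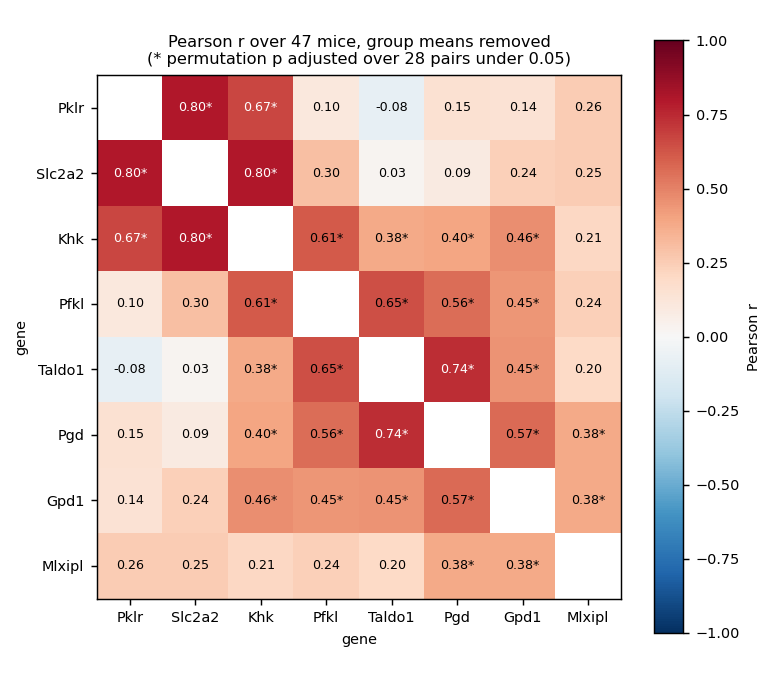
Pearson r between the 8 genes (both axes) over 47 mice after removal of group means, as colour and number, with a star where the permutation p adjusted over the 28 pairs is under 0.05. The order of the genes was set by hand, with Pklr, Slc2a2 and Khk at the upper left (0.67 to 0.80) and then Pfkl, Taldo1, Pgd and Gpd1 (0.45 to 0.74). These do not stand apart, as Khk also has a star with Pfkl (0.61), Gpd1 (0.46), Pgd (0.40) and Taldo1 (0.38). Pklr and Slc2a2 have no star with these genes, although Slc2a2 with Pfkl passed by Spearman's rho.

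The same mice often gave the extreme values. In H-P/C-HF 2-d, mouse B31 was the lowest for 7 of the 8 genes, all but Pklr. In H-P/C-HF 4-wk, B47 was the highest for 5 genes, and in L-P/C-HF 4-wk A19 was the highest for 5 and A24 the lowest for 4. In L-P/C-HF 2-d, A09 was the lowest for Pklr, Khk, Mlxipl and Slc2a2 and at the same time the highest for Taldo1 (11.07).

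Among all 18192 other genes, the ones most alike over the mice, by Pearson r after removal of group means, were Gpd2 for Gpd1 (r = 0.75), Ces1d, Ugp2 and Pygl for Slc2a2 (0.91, 0.90 and 0.89), and Acaa2, Galm and Pdk1 for Khk (0.84, 0.83 and 0.83). Gpd2 encodes the mitochondrial glycerol 3-phosphate dehydrogenase, Ugp2 and Pygl enzymes of glycogen synthesis and breakdown, and Galm the mutarotase of hexoses. Nsmf and Map1lc3a followed Gpd2 for Gpd1 (0.74 and 0.71). For Pklr they were Slc2a2, Ephx2 and Ugp2 (0.80, 0.80 and 0.79). Spearman's rho was lower for these, at 0.61, 0.59 and 0.53, whereas it was 0.80 for Gpd2 with Gpd1. For Mlxipl they were Cnot6l, Card10 and Pxn (0.85, 0.83 and 0.82), for Pfkl Rdh10, Tsen34 and Khdrbs3 (0.90, 0.88 and 0.87), for Pgd Dynlt3, Dync1i2 and Ccm2 (0.85, 0.84 and 0.83), and for Taldo1 Cops9, Znhit1 and Pex2 (0.90, 0.89 and 0.89). These are descriptions over 47 mice whose points share array quality, and no test was made.

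The other genes of the pathways did not pass the diet test either. Of 17 glycolysis genes measured of 23 listed, 12 had higher and 5 lower means in H-P/C-HF 2-d, and the list median was 0.01. Of 18 genes known as carbohydrate-responsive, 12 had lower means in H-P/C-HF 2-d with a median of −0.15, and 10 in H-P/C-HF 4-wk with a median of −0.02, beside 0.01 and −0.02 over all genes. At an unadjusted p under 0.05 in limma, 4 of the 18 were lower at 2-d, beside 1.62% of all genes, and 0 were higher, beside 2.04%. At 4-wk 0 were lower, beside 2.16%, and 0 were higher, beside 0.83%. Txnip, a classical ChREBP target, differed by −0.20 at 2-d and −0.24 at 4-wk (limma, unadjusted p = 0.22 and 0.14). In the glycerol phosphate list, of which 5 of 6 genes were measured, Gpd2 differed by −0.36 at 2-d and −0.34 at 4-wk (limma, unadjusted p = 0.012 and 0.015), Agpat2 by −0.15 and −0.16, Gpd1l by 0.14 and 0.06 and Pgp by −0.12 and 0.02. In the fructose list, of which 4 of 6 were measured, Tkfc, the kinase that phosphorylates glyceraldehyde after fructose is cleaved, differed by −0.33 at 2-d and −0.14 at 4-wk (limma, unadjusted p = 0.0048 and 0.21), Slc2a9 by 0.13 and 0.03, Slc2a8 by −0.03 and −0.05 and Slc2a5 by −0.0045 and 0.07. No gene of these lists had an adjusted p under 0.05 in either diet comparison.

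With the duration, some of them rose, each read from its brightest probe set. Among the carbohydrate-responsive genes, Me1, Scd1 and Fasn, which serve fatty acid synthesis, rose in H-P/C-HF by 1.30, 0.61 and 0.73 (limma, adjusted p = 2.8e-07, 0.000235 and 0.00488), and all 3 were called with the RNA quality covariate too (1.08, 0.61 and 0.85). In L-P/C-HF, Me1 and Scd1 rose by 0.87 and 0.36 (adjusted p = 0.000189 and 0.0359), and neither was called with the covariate. In glycolysis, Pkm, the pyruvate kinase of other tissues, rose by 0.46 in H-P/C-HF and 0.47 in L-P/C-HF (adjusted p = 0.000438 and 0.000168), and was still called with the covariate in both. Hk1 and Pfkp rose in L-P/C-HF by 0.19 and 0.21 (adjusted p = 0.0404 and 0.021) and Pfkfb2 fell by 0.29 in H-P/C-HF (adjusted p = 0.0342). Rpe, of the pentose phosphate pathway (8 of 9 measured), rose by 0.35 in L-P/C-HF (adjusted p = 0.0226), Gbe1, of glycogen synthesis (10 of 11 measured), rose by 0.61 in H-P/C-HF (adjusted p = 0.0248), and Hnf4a, among the regulators (10 of 12 measured), fell by 0.30 in H-P/C-HF and by 0.29 in L-P/C-HF (adjusted p = 0.000565 and 0.00068). None of Hk1, Pfkp, Pfkfb2, Rpe, Gbe1 and Hnf4a was called with the covariate.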

How the data were processed

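Affymetrix mouse arrays were hybridised with liver RNA, 1 for each of 48 mice. The deposited log2 values were made by the authors with RMA, and their size shows the log base. The labels HPHC and HFHC were read as H-P/C-HF (HPHC) and as L-P/C-HF (HFHC). Probe sets were named from GEO's platform annotation (34945 with 1 symbol, 932 with several, 9160 with none); 64 control probe sets were left out. The 47 arrays without B25 were fitted as group means in limma 3.58.1 (R 4.3.3) with a trend in eBayes and Benjamini-Hochberg adjustment over 45037 probe sets, two-sided, because the Global Error Assessment of the methods was not run here; an ordinary ANOVA without that step was an alternative. A gene was represented by its brightest probe set where 1 value per gene was needed. Correlations used 100000 permutations (numpy 2.4.6). The scripts were tested on simulated data. Members and gene lists were chosen with earlier results of these data known. Named were all members, the list genes that passed a comparison or else the 4 with the smallest p in a diet comparison, Txnip, and the 3 genes most alike to each member; 1 further item of the rule is not reported here. Other marker lists (lymphocytes, cholangiocytes, adipocytes, skeletal muscle, erythroid and pancreatic acinar cells) had 1, 0, 1, 0, 0 and 0 genes called higher in each duration comparison. P-values measure the spread between mice, whose number limits the precision.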

Additional observations from a re-analysis of the deposited data

How the results depend on the processing

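Over the other settings, the 18 probe sets kept their call, or lack of one, in 1098 of 1140 values; 23 lost a call and 19 gained one, and no called value changed sign, while 36 uncalled ones did. All probe sets called by diet at 2-d numbered 6 in the main limma fit used here. They numbered 23 with cyclic loess, 12 with only the brighter probe sets, 1 with the replicate block and 2 with the ordinary ANOVA. These are not the paper's counts, which rest on its own test and on an unadjusted p. At 4-wk it was 10 with array weights, 1 with cyclic loess and 2 with the replicate block, against 0. For the average diet difference it was 90 with array weights, 72 with cyclic loess and 15 with the ANOVA, against 23. For the duration it was 464 with the RNA quality covariate in L-P/C-HF, against 3096, and in H-P/C-HF 622 with the covariate and 5545 with array weights, against 3012. Among the member probe sets, the 2-d diet count of 0 became 1 (Gpd1) with cyclic loess or with only the groups compared, and so did the count of genes. The average diet count of 0 became 1 with B25 included or with the brighter probe sets, 2 with A01, A09 and A24 left out or with cyclic loess, and 3 probe sets of 2 genes with array weights. The L-P/C-HF duration count of 4 became 2 with A01, A09 and A24 left out, with median centring, with the ANOVA or with only the groups compared, and 0 with the covariate; its count of 3 genes became 5 with cyclic loess or the brighter probe sets, and 0 with the covariate or with each gene's probe sets averaged. The H-P/C-HF duration count of 6 became 1 with the covariate, and its 4 genes became 1 with the covariate and 2 with the mean of probe sets. The cause of these moves was not tested.

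Leaving out 1 mouse at a time (47 fits, chosen after seeing the data) gave 1 to 13 probe sets at 2-d and 13 to 31 for the average diet difference, where 0 to 1 were members (1 without A24 or B47). In L-P/C-HF the duration called 2 to 6 member probe sets and 2 to 5 member genes, and in H-P/C-HF 5 to 7 and 4 to 5. Same-numbered mice of different groups did not deviate together (mean r of −0.02 over 69 pairs against 0.00 over 759 others), so the replicate numbers were not taken as a pairing, and the replicate block changed 1 call of a member probe set, that of Slc2a2 in the L-P/C-HF duration comparison (adjusted p = 0.0752). The correlated pairs numbered 15, and 17 with B25 included, with A01, A09 and A24 left out or with median centring, and 20 with the RNA quality measure regressed out, a setting also chosen after seeing the data. Probe sets of low signal, such as Gpd1 1456732_at, limit what a small difference can show.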
